A study of Mus musculus with 8 samples.

Results

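The DNA replication licensing and replisome genes are 44 genes whose proteins mark origins of replication, load and switch on the helicase that opens the DNA, copy the strands, supply deoxynucleotides and hand histones to the new DNA. They were chosen by name, and all 44 were found among the 47729 genes of the count table and passed the filter on low counts. Replication is licensed before S phase, when the origin recognition complex, CDC6 and CDT1 load the ring-shaped MCM helicase onto DNA. In S phase CDC45 and the GINS complex join the ring, and polymerases, sliding clamp and ligase follow it. Most of these genes are known as targets of the E2F transcription factors, and their transcripts mark cycling cells, in bone marrow above all the fast-dividing erythroid and myeloid progenitors.

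The samples were 8 RNA libraries of sorted bone marrow cells, each from 1 C57BL/6 mouse with a disease like chronic myeloid leukaemia, 4 with a scrambled shRNA and 4 with an shRNA against Fubp1. All 8 mice had received donor marrow from animals given 5-fluorouracil, after 900 cGy of irradiation. In both groups the donor cells carried BCR-ABL1, the fusion kinase of this leukaemia, on a retrovirus with a red reporter, and the shRNA on a pLKO.1 lentivirus with the Venus reporter. The sort kept live cells that lacked lineage markers and had both reporters. The sources used here do not give the age of the mice or the shRNA sequence. Total counts per library ran from 22465303 to 44761356.

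Fubp1, the target, encodes a single-strand DNA and RNA binding protein known for its action on Myc. In the order of replicates 1 to 4, as everywhere below, it had 296, 284, 291 and 396 CPM (counts per 1e6 of the scaled library total) in the scrambled mice and 281, 228, 220 and 239 CPM in the knockdown mice. All knockdown values lay below all scrambled values (exact two-sided permutation p = 0.0286, the smallest that 4 against 4 can give), and no library went against its label. Knockdown replicate 1 lay close to scrambled replicate 2, at 281 against 284 CPM. The log2 fold change, knockdown minus scrambled as everywhere below, was -0.39 (SE 0.12). Its adjusted p was 0.0604 by edgeR's quasi-likelihood test, so it missed the threshold of 0.05 over all genes. Without scrambled replicate 4, the highest library, the change was -0.28 (adjusted p = 0.0707 by the same test). The sorted cells expressed erythroid genes, with a summed 8505 to 9329 CPM of 10 markers in the scrambled and 6335 to 9184 CPM in the knockdown libraries. The sums of B cell markers (0.167 to 0.805 CPM in the scrambled and 0.476 to 3.71 CPM in the knockdown libraries) and of T and NK cell markers (1.80 to 8.13 CPM and 2.06 to 86.6 CPM) were far smaller. Of these lists Ms4a1 and Cd3e had no count in any library.

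Few of the replication genes passed the test, and most estimates lay a little below 0. By edgeR's quasi-likelihood test, adjusted over the 13462 tested genes, 5 of the 44 fell, namely the primase subunit gene Prim2, the licensing gene Cdc6, the helicase genes Mcm2 and Mcm7 and the GINS gene Gins4. None rose. Of all tested genes 7.29% fell and 8.02% rose, so the 5 of 44 (11.4%) stand not far from the background. The estimate was below 0 in 39 of the 44 and in 49.8% of all tested genes. The median log2 fold change was -0.15, against 0.00 over all tested genes, and the estimates ran from -0.41 for Prim2 to 0.15 for Tk1. At an unadjusted p under 0.05, 18 were lower and 0 higher, where 15.5% of all tested genes were lower. In the authors' deposited table, 7 of the 44 had an adjusted p under 0.05, all lower, where 9.43% of its genes with an adjusted p were lower. These were the same 5 with Orc2 and Rpa2. DESeq2, run here on the same counts, called the same 7, where 10.0% of genes were lower. Fewer cells in cycle and less of these RNAs per cell cannot be told apart in libraries of pooled sorted cells.

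**Figure D1:**
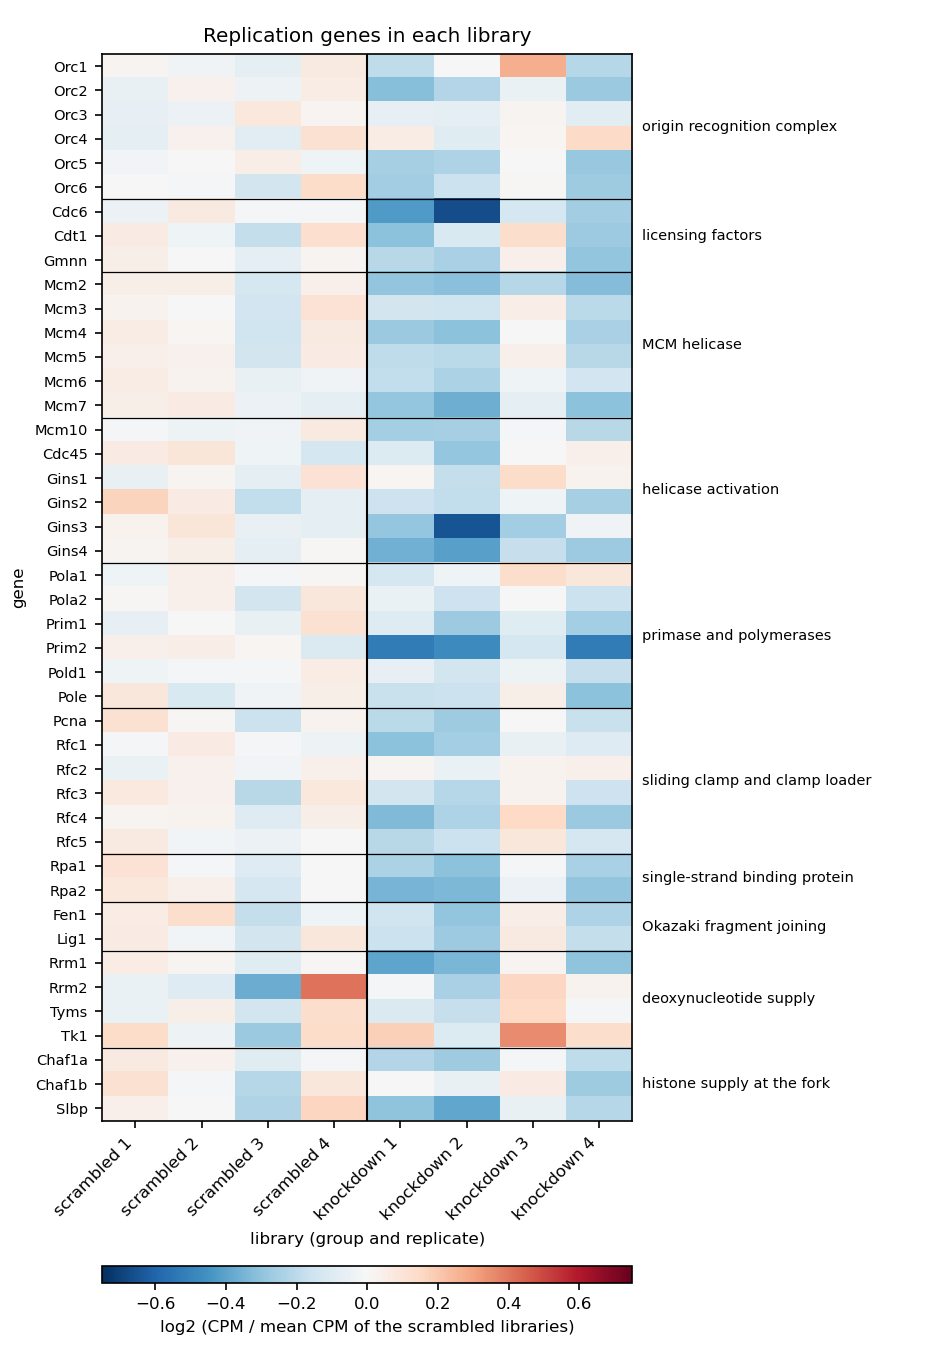
Each cell gives the log2 ratio of a gene's CPM in 1 library (columns, 4 scrambled and 4 knockdown mice) to its mean CPM over the scrambled libraries, for the 44 genes (rows, grouped by role), with blue below and red above that mean. Knockdown replicates 1, 2 and 4 are blue in most rows, while knockdown replicate 3 has 27 of its 44 values within the scrambled range.

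Knockdown replicate 3 stood apart from the other 3 knockdown mice. Its summed level over the 44 genes was 13136 CPM, within the scrambled libraries at 13410, 13188, 12141 and 13612 CPM, while knockdown replicates 1, 2 and 4 had 11283, 11002 and 11393 CPM. Scrambled replicate 3 had the lowest sum of its group and lay below the scrambled mean for 41 of the genes. Scrambled replicates 1, 2 and 4 lay below that mean for 14, 16 and 13. Of the 44 genes 30, 38 and 33 lay below all scrambled libraries in knockdown replicates 1, 2 and 4, against 9 in knockdown replicate 3. That library was the highest of the knockdown libraries for 40 of the genes, although its Fubp1 level was the lowest of all 8. The shares of all tested genes with these orders were not counted, so the counts are not known to be particular to the replication genes. Without knockdown replicate 3, 25 of the 44 fell (56.8%) and 0 rose, with a median log2 fold change of -0.22, where 10.6% of all tested genes fell. The 25 included the 5 that fell with all libraries. Knockdown replicate 3 was singled out by the levels of these same genes. Leaving it out lowers the knockdown mean of the 40 in which it was highest. The calls made without it, here and below, therefore describe the part of that library and are no separate support for a fall.

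Leaving out any of the other 7 libraries left 0 to 4 genes called. Without scrambled replicates 1, 2, 3 and 4 there were 1, 0, 2 and 4 that fell, where 2.67%, 1.81%, 2.30% and 7.71% of all tested genes fell. Without knockdown replicates 1, 2 and 4 there were 1, 2 and 3, where 3.12%, 3.41% and 5.04% fell. In these 7 fits the share of the replication genes called (0 to 9.09%) ran near that of all genes, above it in some and below it in others, and only without knockdown replicate 3 was it several times as high.

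**Figure D2:**
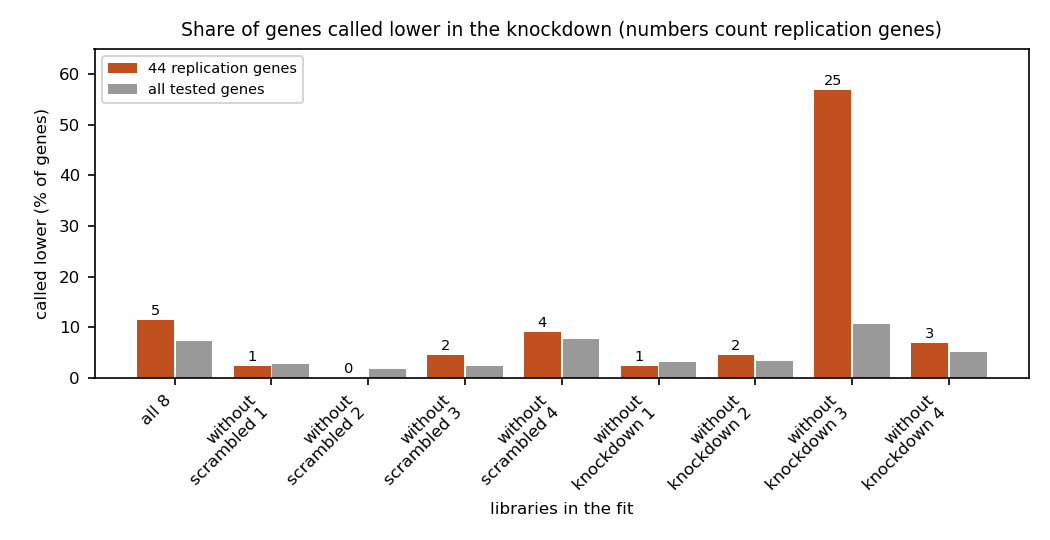
Bars give the percent of the 44 replication genes and of all tested genes called lower by edgeR (adjusted p under 0.05) with all 8 libraries and with each library left out in turn, and the numbers count replication genes. The bar without knockdown replicate 3 stands at 25 genes (56.8%), against 0 to 5 genes in the other fits.

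Markers of cell types varied over the libraries, and edgeR called some of the megakaryocyte and erythroid ones. The 11 early granulocyte markers, genes such as the myeloperoxidase gene Mpo and the elastase gene Elane, summed to 37.3 to 335 CPM in the scrambled libraries. In knockdown replicates 1 to 4 they summed to 1973, 950, 87.0 and 3614 CPM. Knockdown replicate 3 thus lay within the scrambled range for these markers as it did for the replication genes. None of the 11 was at 0 in all libraries. Of the 8 tested by edgeR 0 passed the threshold and 7 were higher at an unadjusted p under 0.05, where 18.0% of all tested genes were higher. DESeq2 called 8 of the 11 higher, where 13.1% of genes were higher. The 6 monocyte markers summed to 4.66 to 15.9 CPM in the scrambled libraries and to 152, 28.1, 10.7 and 212 CPM in the knockdown libraries, and DESeq2 called all 6 higher, where edgeR called 0 and had 5 at an unadjusted p under 0.05. The 6 megakaryocyte markers summed to 50.6 to 64.5 CPM in the scrambled libraries and to 192, 145, 157 and 112 CPM in the knockdown, replicate 3 included. Of the 5 tested by edgeR 2 rose, the integrin gene Itga2b (1.63, SE 0.18, adjusted p = 0.00282) and the platelet glycoprotein gene Gp1ba (0.67, SE 0.15, adjusted p = 0.0225). Of the 10 erythroid markers 5 fell and 2 rose by edgeR. Ermap (-0.62), Klf1 (-0.46), Epor (-0.42) and Car2 (-0.71) were among those that fell, with all 4 knockdown libraries below the scrambled ones, and the globin gene Hbb-bs rose (1.63, SE 0.35). Mature neutrophil markers summed to 1.17 to 4.52 CPM in the scrambled and to 2.86, 11.1, 0.413 and 21.4 CPM in the knockdown libraries. Mast cell and basophil markers, mostly Gata2, summed to 152 to 184 CPM and to 162, 161, 141 and 95.0 CPM. The sum hides the less counted markers of that list. Gata2 had an estimate of -0.41 (SE 0.22), while Mcpt8, Prss34, Ms4a2 and Cpa3 had estimates above 0. These ran from 0.83 (SE 1.03) for Cpa3 to 2.43 (SE 1.12) for Mcpt8. In either list 0 genes passed by edgeR, which tested 2 of the 6 neutrophil and 5 of the 6 mast cell and basophil markers. DESeq2 called 1 neutrophil marker higher, Cxcr2, which edgeR did not test. The part of any of these cells in the level of the replication genes was not tested.

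**Figure D3:**
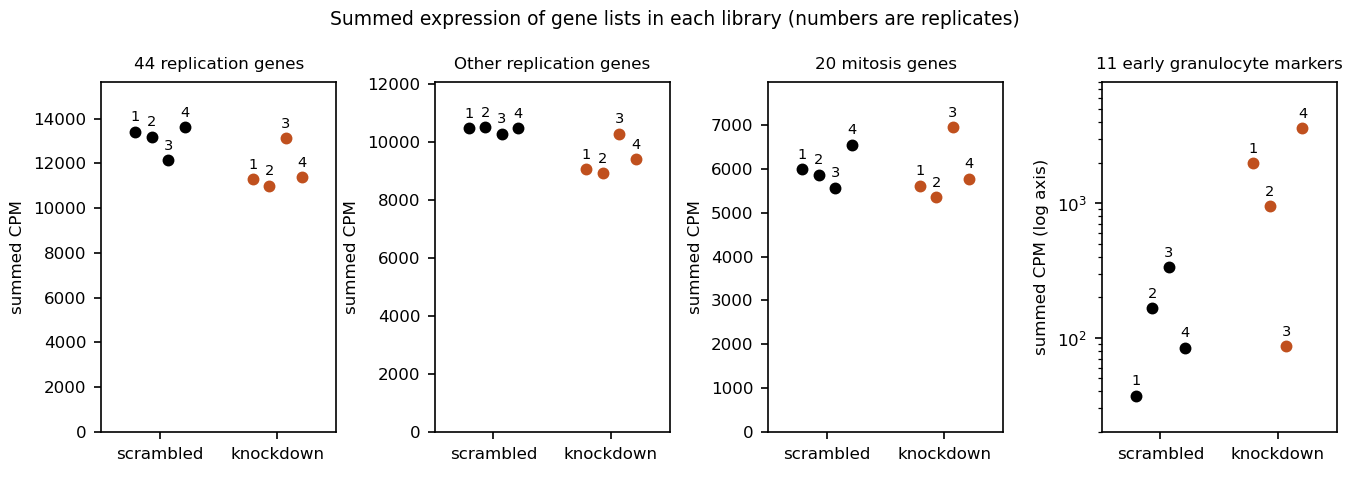
Points give the summed CPM of a gene list in each library, numbered by replicate, with scrambled libraries in black and knockdown libraries in orange, on linear axes from 0 except for the early granulocyte markers on a log axis. Knockdown replicate 3 lies with the scrambled libraries in the lists of 44 and 43 replication genes and in the granulocyte markers, and is the highest of all libraries in the mitosis list at 6945 CPM.

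Among the 6 genes of the origin recognition complex, which binds origins and stays the platform for helicase loading, 0 passed the threshold by edgeR, with 2 lower at an unadjusted p under 0.05 and 1, Orc2, called lower by DESeq2. Orc2, its most counted gene, measured 282, 301, 287 and 305 CPM in the scrambled mice and 235, 253, 283 and 242 CPM in the knockdown mice. Only knockdown replicate 3 reached the scrambled range, and the change of -0.21 (SE 0.07) had an adjusted p of 0.0603 by edgeR. Orc5 (-0.19) and Orc6 (-0.17) had the same pattern, with adjusted p of 0.0983 and 0.186. Orc3 (-0.05), Orc4 (0.03) and Orc1, the subunit that is made and destroyed with the cell cycle (-0.02), had estimates within 1 SE of 0. The signs of Orc1 and Orc4 turned with some libraries left out. Without knockdown replicate 3, Orc2, Orc5 and Orc6 fell, with adjusted p of 0.00947, 0.0109 and 0.0419.

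Of the 3 licensing genes Cdc6, the ATPase that recruits the helicase to origins, fell. It measured 245, 265, 250 and 251 CPM in the scrambled libraries, and 189, 160, 230 and 211 CPM in the knockdown mice. All knockdown values lay below all scrambled ones, with knockdown replicate 2 lowest at 160 CPM. The log2 fold change was -0.36 (SE 0.10, adjusted p = 0.0471 by edgeR), or 78.1% of the scrambled level. Cdt1, the partner of CDC6 in loading, measured 297, 279, 252 and 312 CPM in the scrambled mice and 230, 264, 313 and 236 CPM in the knockdown mice. Its groups overlapped, with knockdown replicate 3 at the top of all 8, and the estimate of -0.13 (SE 0.11) had an adjusted p of 0.441. Gmnn, which encodes geminin, the inhibitor of CDT1, had an estimate of -0.17 (SE 0.08, adjusted p = 0.156).

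The 6 genes of the MCM2 to MCM7 ring, the helicase core, all had estimates below 0, and 2 of them fell. Mcm2 had the smallest p of the 44 genes. It measured 906, 904, 801 and 901 CPM in the scrambled mice and 714, 705, 756 and 700 CPM in the knockdown. Here all 4 knockdown mice lay below all scrambled mice, knockdown replicate 3 included, and the change was -0.29 (SE 0.06, adjusted p = 0.0163 by edgeR). Mcm7 measured 559, 566, 525 and 516 CPM in the scrambled mice and 442, 420, 516 and 438 CPM in the knockdown mice, a change of -0.25 (SE 0.07, adjusted p = 0.0454). Its groups were separated by less than 1 CPM, since knockdown replicate 3 and scrambled replicate 4 were nearly equal. Mcm6, the most abundant of the ring, measured 1014, 994, 941 and 961 CPM in the scrambled mice and 860, 830, 957 and 885 CPM in the knockdown mice. Its groups overlapped only through knockdown replicate 3, and the estimate was -0.15 (SE 0.06, adjusted p = 0.109). Mcm4 (-0.20), Mcm5 (-0.14) and Mcm3 (-0.11) had adjusted p of 0.116, 0.219 and 0.359. Without knockdown replicate 3 all but Mcm3 fell, with log2 fold changes of -0.33 to -0.20.

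The 2 called genes with an E2F motif in a promoter of the RefSeq table (GRCm38.p6, 250 bases before to 50 after the start), Mcm7 and Cdc6, are shown in full, since the helicase ring and its loader are the core of licensing; of the 5 called genes these had the largest p. Searched were 4 forms of the E2F motif, TTTCCCGC, TTTGGCGC, TTTCGCGC and TTTGCCGC, on both strands, and capitals mark the matches. Mcm7 (chromosome 5 from 138164583 to 138172422, minus strand) has 2 entries, of which the 1 at chr5:138171834-138172133 holds 2 matches that do not overlap. Cdc6 (chromosome 11 from 98907801 to 98923940, plus strand) holds 1 match in its entry at chr11:98907901-98908200. Both are written 5′ to 3′ on the strand of the gene.
Mcm7: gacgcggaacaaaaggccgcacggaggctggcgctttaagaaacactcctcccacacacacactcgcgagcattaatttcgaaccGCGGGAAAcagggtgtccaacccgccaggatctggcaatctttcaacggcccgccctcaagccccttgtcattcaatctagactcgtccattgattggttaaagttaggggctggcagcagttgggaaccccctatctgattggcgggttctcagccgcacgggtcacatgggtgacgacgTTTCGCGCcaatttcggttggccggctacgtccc
Cdc6: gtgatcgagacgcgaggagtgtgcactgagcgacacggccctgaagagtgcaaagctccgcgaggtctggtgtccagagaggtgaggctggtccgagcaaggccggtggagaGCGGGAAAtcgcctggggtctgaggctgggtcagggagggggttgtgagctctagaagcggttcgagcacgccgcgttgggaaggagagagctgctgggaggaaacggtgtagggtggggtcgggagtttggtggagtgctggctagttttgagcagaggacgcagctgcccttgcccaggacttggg

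Shorter stretches show the other members with more than 1 match, chosen after their matches were seen. In Mcm5 and Mcm6 a pair of matches on opposite strands overlaps, so that 1 run holds both forms, and Mcm6 has 1 more match further on. In Mcm3 and Rfc3, the latter a clamp loader gene, matches on opposite strands lie close together without overlap. The stretches lie in the table's promoters chr8:75109259-75109558 (Mcm5, plus strand), chr1:128359656-128359955 (Mcm6, minus strand), chr1:20820263-20820562 (Mcm3, minus strand) and chr5:151651159-151651458 (Rfc3, minus strand).
Mcm5: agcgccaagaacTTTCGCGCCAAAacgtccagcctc
Mcm6: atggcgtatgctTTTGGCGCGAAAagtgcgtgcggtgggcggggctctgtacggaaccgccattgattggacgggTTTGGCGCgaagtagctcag
Mcm3: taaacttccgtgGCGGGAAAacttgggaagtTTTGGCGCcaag
Rfc3: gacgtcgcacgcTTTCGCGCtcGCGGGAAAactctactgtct

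At least 1 of the 4 forms was present for 13 of the 36 genes that the table matched (36.1%), against 2.60% of all 27025 genes in it and 4.81% of its 9593 genes that were tested here. The 13 were Cdc6, Cdt1, Gins3, Lig1, Mcm3, Mcm5, Mcm6, Mcm7, Orc1, Orc3, Pola1, Pold1 and Rfc3. Gmnn, Mcm4, Gins1, Gins2, Gins4, Prim2, Pole and Rfc2 were not matched. The CCAAT box, searched as CCAAT on both strands, was present for 23 of the 36 (63.9%) and for 43.0% of the tested genes, and the CHR motif TTTGAA for 4 of the 36 (11.1%) and 14.2% of the tested genes. The difference between genes with and without an E2F form was not tested. The 13 with 1 had a median log2 fold change of -0.13 with 2 that fell, the 23 without had -0.17 with 1 that fell, and the 8 that were not matched had -0.16 with 2 that fell, Gins4 and Prim2. A match of letters is a description of the promoter and not a binding site.

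Of the 6 genes that switch the loaded helicase on, Gins4 fell. It encodes a subunit of the GINS complex, which joins the ring with CDC45. Gins4 measured 86.5, 87.9, 81.1 and 86.1 CPM in the scrambled mice and 66.6, 64.4, 75.7 and 70.8 CPM in the knockdown mice, so that the groups were apart, with knockdown replicate 3 again the highest of its group. Its change was -0.30 (SE 0.07, adjusted p = 0.0215 by edgeR), or 81.3% of the scrambled level. The other subunits had adjusted p of 0.983 for Gins1 (0.00, SE 0.08), 0.248 for Gins2 (-0.15) and 0.134 for Gins3 (-0.29, SE 0.12). Mcm10, which helps the active helicase to leave the origin, measured 230, 225, 227 and 242 CPM in the scrambled mice and 193, 194, 228 and 200 CPM in the knockdown mice. Again knockdown replicate 3 alone lay within the scrambled range, and the estimate was -0.18 (SE 0.06, adjusted p = 0.0881). Cdc45 had -0.08 (SE 0.08, adjusted p = 0.524).

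Among primase and the replicative polymerases Prim2 had the largest change of the 44 genes, while the median of these 6 genes was -0.12. Prim2 encodes the large subunit of primase, which lays the RNA primers. It measured 149, 150, 146 and 135 CPM in the scrambled mice and 101, 104, 132 and 101 CPM in the knockdown mice. Knockdown replicates 1, 2 and 4 lay far below the scrambled libraries and knockdown replicate 3 just below them. The log2 fold change was -0.41 (SE 0.09, adjusted p = 0.0258 by edgeR), or 75.5% of the scrambled level, and -0.52 (SE 0.06) without knockdown replicate 3. Prim1, the catalytic subunit that works with PRIM2, measured 145, 151, 145 and 163 CPM in the scrambled mice and 141, 125, 142 and 126 CPM in the knockdown mice. Its groups were apart too, but the change of -0.18 (SE 0.07) had an adjusted p of 0.0994.

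Pold1, the catalytic subunit of polymerase delta, measured 222, 225, 225 and 236 CPM in the scrambled mice and 217, 207, 221 and 202 CPM in the knockdown mice. The groups were apart by under 1 CPM, with a change of -0.10 (SE 0.05, adjusted p = 0.195). Pole, the catalytic subunit of polymerase epsilon, measured 289, 253, 268 and 282 CPM in the scrambled mice and 243, 244, 282 and 221 CPM in the knockdown mice. Its groups overlapped, and the estimate was -0.14 (SE 0.08, adjusted p = 0.248). Of polymerase alpha, which extends the primers, Pola1 had 0.02 (SE 0.06) and Pola2 -0.09 (SE 0.06), with adjusted p of 0.866 and 0.372.

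The sliding clamp PCNA and its loader, the RFC complex, had 0 genes past the threshold by edgeR and by DESeq2, with 1, Rfc1, at an unadjusted p under 0.05. Pcna measured 358, 332, 296 and 337 CPM in the scrambled mice and 288, 275, 332 and 295 CPM in the knockdown mice, and the estimate was -0.15 (SE 0.08, adjusted p = 0.199). Scrambled replicate 3, at 296 CPM, lay within the knockdown range there. Rfc1, the large loader subunit, measured 222, 234, 222 and 219 CPM in the scrambled mice and 181, 188, 215 and 210 CPM in the knockdown mice. The groups were apart, yet the change of -0.18 (SE 0.07) had an adjusted p of 0.0991. Rfc2 varied least of all 44 genes over the 8 libraries, with a highest level 1.06 times its lowest and an estimate of 0.01 (SE 0.05). Rfc3, Rfc4 and Rfc5 had estimates of -0.12, -0.16 and -0.10, with adjusted p of 0.318 to 0.362.

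Counted over the 44 genes, 8 had all knockdown libraries below all scrambled ones, and 0 had them above. They were the 5 that fell with Prim1, Pold1 and Rfc1, where 11.1% of all tested genes had the knockdown libraries below.

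RPA coats the single-stranded DNA at the fork. Rpa1, its large subunit, measured 478, 439, 415 and 443 CPM in the scrambled mice and 377, 359, 441 and 375 CPM in the knockdown mice, with an estimate of -0.19 (SE 0.07, adjusted p = 0.105). Rpa2 had -0.25 (SE 0.08, adjusted p = 0.0652). Both overlapped only through knockdown replicate 3, and both fell without it (adjusted p = 0.0128 and 0.00729). Lig1, the ligase that seals Okazaki fragments, measured 519, 490, 451 and 528 CPM in the scrambled mice and 445, 411, 520 and 440 CPM in the knockdown mice. Here knockdown replicates 1, 2 and 4 lay below all scrambled values, and the estimate was -0.13 (SE 0.08, adjusted p = 0.302). Fen1, the flap nuclease that trims the fragments before ligation, had -0.15 (SE 0.10, adjusted p = 0.336).

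Of the 4 deoxynucleotide genes 0 passed by edgeR or DESeq2, and 1, Rrm1, was lower at an unadjusted p under 0.05. Rrm1 encodes the large subunit of ribonucleotide reductase, which makes the building blocks of DNA. It measured 1241, 1210, 1121 and 1200 CPM in the scrambled mice and 905, 940, 1209 and 966 CPM in the knockdown mice. Knockdown replicates 1, 2 and 4 were far below the scrambled libraries and knockdown replicate 3 was among them, which gave -0.25 (SE 0.09, adjusted p = 0.0941) with all libraries and -0.36 (SE 0.05, adjusted p = 0.00390) without that library. Rrm2, the small subunit, had -0.01 (SE 0.16), with 823 CPM in scrambled replicate 4 and 481 CPM in scrambled replicate 3 as its extremes. Tyms, thymidylate synthase, had -0.03 (SE 0.09). Tk1, the salvage kinase for thymidine, had the highest estimate of the 44 genes, 0.15 (SE 0.12, adjusted p = 0.411), and its highest level, 167 CPM, was in knockdown replicate 3.

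Of the 3 genes that supply histones at the fork 0 passed the threshold by edgeR or DESeq2, and 2 were lower at an unadjusted p under 0.05. Slbp, whose protein binds the stem-loop of histone mRNAs, measured 269, 260, 223 and 292 CPM in the scrambled mice and 212, 199, 251 and 225 CPM in the knockdown mice. Its groups overlapped, with an estimate of -0.23 (SE 0.10, adjusted p = 0.124). Of the chromatin assembly factor, which places histones behind the fork, Chaf1a had -0.17 (SE 0.07, adjusted p = 0.108) and Chaf1b -0.06 (SE 0.09, adjusted p = 0.700).

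**Figure D4:**
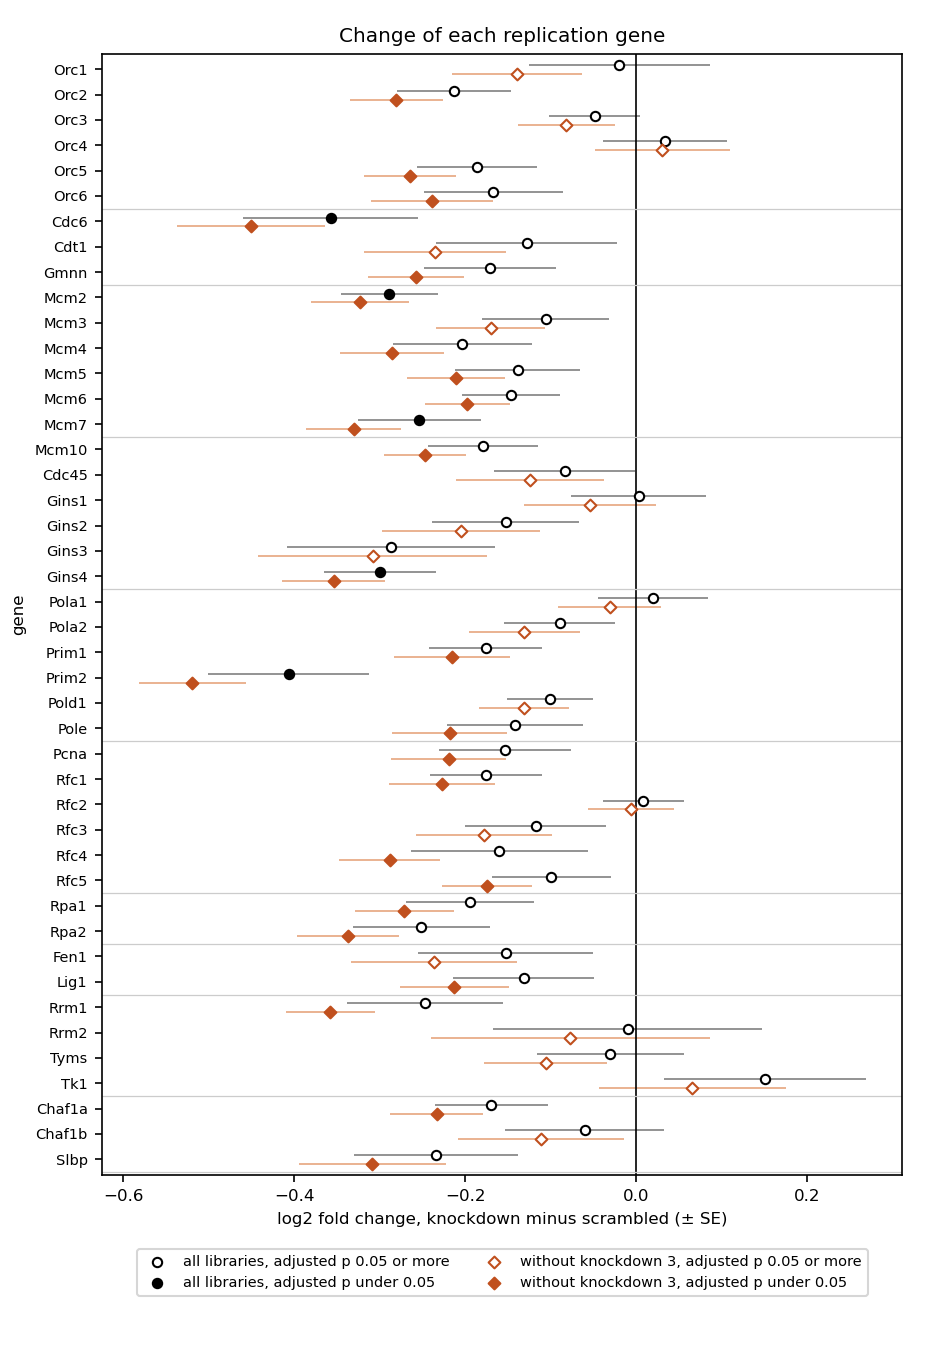
Points give the log2 fold change of each gene, knockdown minus scrambled, with its SE, for all 8 libraries (black circles) and without knockdown replicate 3 (orange diamonds), and filled points have an adjusted p under 0.05 by edgeR. With all libraries 5 points are filled, and without that library 25 are.

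The level of the genes per length differed widely within the complexes. Levels here are CPM per kb of the transcript with the longest coding sequence in GENCODE M21 (GRCm38), as mean ± SD (n = 4 per group). In the scrambled libraries the ring genes ran from 178 ± 12.2 for Mcm4 and 183 ± 8.25 for Mcm7 to 336 ± 11.4 for Mcm6. Mcm2, Mcm3 and Mcm5 lay between, at 261 ± 15.2, 269 ± 19.7 and 277 ± 16.9, and differed among themselves by about their SD. Per kb of all exons of a gene the order differed, with Mcm7 (122) and Mcm2 (126) lowest and Mcm5 (234) highest. Per kb of transcript the knockdown ring again ran from Mcm7 (153 ± 14.3) and Mcm4 (154 ± 15.6) up to Mcm6 (303 ± 18.7).

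Origin recognition genes stood lower and further apart. Orc6 had 130 ± 10.3, Orc2 82.5 ± 3.08, Orc5 63.9 ± 1.56 and Orc3 56.7 ± 2.56 in the scrambled libraries. Orc1 at 24.4 ± 1.01 and Orc4 at 13.1 ± 0.865 were the lowest. The helicase activators ran from 66.0 ± 4.49 for Cdc45 and 63.3 ± 2.18 for Gins4 to 15.8 ± 1.66 for Gins2 and 14.7 ± 0.763 for Gins3. The neighbours at both ends of that order did not differ beyond their SD. Rrm1 (299 ± 12.8), Rrm2 (283 ± 65.8) and Pcna (218 ± 16.9) were in the range of the ring.

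Fen1 stood lowest of the 44 per kb of transcript, at 11.6 ± 1.06, while Lig1, which acts next to it, had 157 ± 10.9. Per kb of all exons Orc4 (7.12) stood below Fen1 (11.4), Orc2 (76.1) above Orc6 (67.8), and Gins4 (63.3) above Cdc45 (40.3), so these orders depend on the length used. Of the exon bases of Fen1 78.8% overlap exons of the antisense gene Gm10143, those of Gins2 overlap Gse1 by 67.3% and those of Chaf1a overlap Ubxn6 by 52.5%, each on the opposite strand. The sources used here do not say whether the authors counted by strand, so the levels and changes of these 3 genes are uncertain. Of Orc2 29.8% of exon bases overlap Nif3l1 in the same way. The pseudogene Pcna-ps2 had 200 counts over all libraries against 82054 for Pcna.

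**Figure D5:**
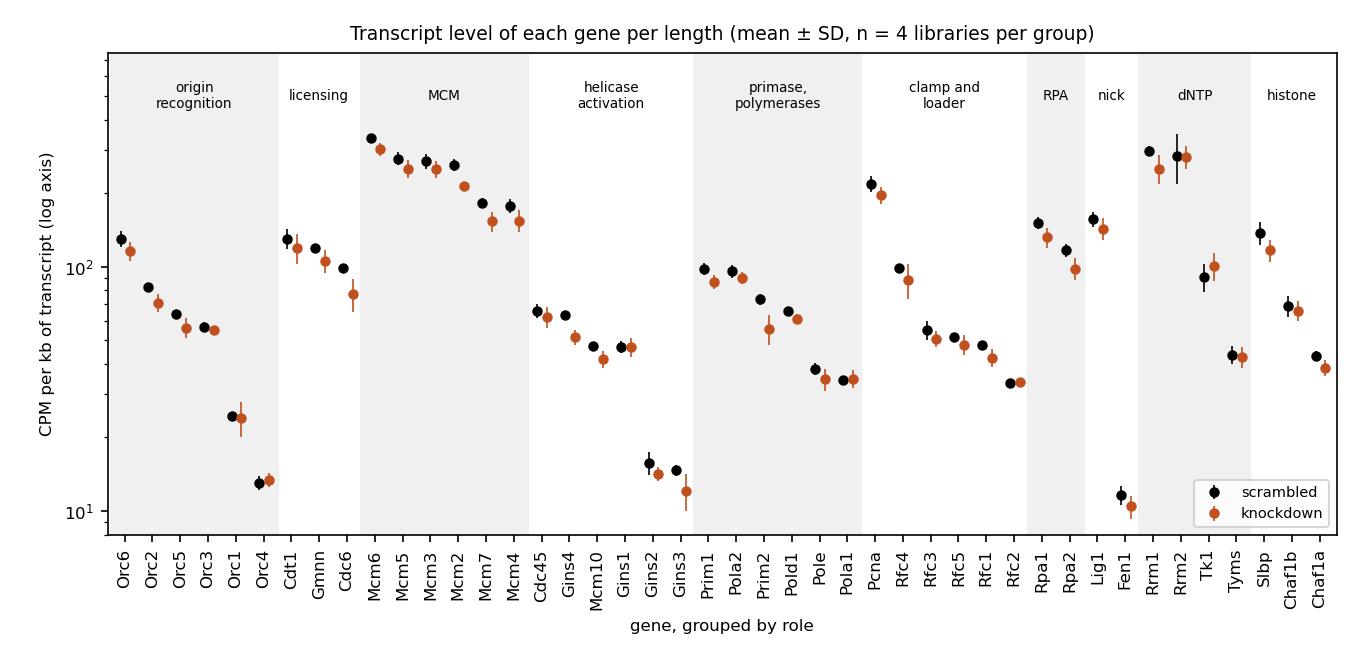
Points give the mean CPM per kb of transcript of each gene on a log axis, with SD over 4 libraries, in the scrambled (black) and knockdown (orange) groups, grouped by role and ordered by the scrambled level. Within the helicase activators the level falls from 66.0 for Cdc45 to 14.7 for Gins3.

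A further list of 43 replication genes, among them the remaining polymerase and RPA subunits, the kinase DBF4-CDC7 and fork protection genes, was measured in the same fit. In it 6 of 43 fell and 1 rose by edgeR, where 7.29% of all tested genes fell and 8.02% rose, and the median log2 fold change was -0.15. DESeq2 called 13 of the 43 lower and 1 higher, where 10.0% of genes were lower and 13.1% higher. The knockdown libraries all lay below the scrambled ones for 11 of the 43, where 11.1% of all tested genes had that order. Dna2, a nuclease and helicase that processes flaps, fell from 273 ± 21.5 to 202 ± 16.4 CPM (SD, n = 4 per group), with an adjusted p of 0.0118 by edgeR. Timeless, part of the fork protection complex, fell from 235 ± 18.2 to 179 ± 13.9 CPM (adjusted p = 0.0145 by edgeR). The polymerase epsilon subunit gene Pole3 (-0.36), the fork scaffold gene Wdhd1 (-0.33) and the dUTPase gene Dut (-0.26) fell as well. The 6 that fell by edgeR were among those 11. Dctpp1, which clears modified deoxycytidine nucleotides and is named after its value was seen, rose by 0.38 (SE 0.10, adjusted p = 0.0323).

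Genes of later cell cycle phases are given beside these as values. Of 20 mitosis genes 2 fell, the survivin gene Birc5 (-0.40) and the kinetochore motor gene Cenpe (-0.26), and 0 rose, with a median of -0.05. Mki67, the proliferation marker, measured 2310, 2180, 2001 and 2464 CPM in the scrambled mice and 2179, 2054, 2917 and 2288 CPM in the knockdown mice, with an estimate of 0.08 (SE 0.11, adjusted p = 0.687). The groups overlapped, and knockdown replicate 3 was the highest of all 8. Of 13 E2F and retinoblastoma family genes 0 passed by edgeR, with 1 higher and 2 lower at an unadjusted p under 0.05 and 1 called lower by DESeq2, and a median of 0.02. Of 6 tested CDK inhibitor genes 0 fell and 1 rose by edgeR, but 4 had estimates below 0 and the median was -0.27. Cdkn2c (-0.36) was lower at an unadjusted p under 0.05. The gene that rose was Cdkn2d, which encodes an inhibitor of CDK4 and CDK6. It had 9.28 ± 1.84 CPM in the scrambled and 17.7 ± 3.35 CPM in the knockdown mice (SD, n = 4 each, adjusted p = 0.0151 by edgeR). The 8 immediate early genes, such as Fos and Egr1, summed to 1984 to 4190 CPM in the scrambled libraries. In knockdown replicates 1 to 4 they summed to 3230, 5809, 6330 and 2288 CPM, so knockdown replicate 3 was again the highest. Both edgeR and DESeq2 called 0 of them. Whether these lists differ from the replication genes was not tested.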

How the data were processed

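Expression was measured by RNA-seq in 8 libraries, 500 ng of RNA each, with stranded total RNA kits after depletion of ribosomal RNA; the labels' protocols name 2 versions of the depletion and not which library had which. The deposited table holds raw read counts per gene, which the authors made with no normalization. It also holds the authors' log2 fold changes with SE and test score, p-values with adjusted p-values and the mean normalized signal, made with DESeq2 1.18.1 per the submitters' processing notes, which also name CASAVA 1.8. The sources used here name no aligner, counting program, strand setting, annotation or build. Coordinates and lengths come from GENCODE M21 by Ensembl ID, and promoters from RefSeq by symbol. Each count column was tied to its sample through the number at the end of the description.

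The test was that of edgeR 4.0.16 (R 4.3.3) on the counts. Filtering by filterByExpr with the group left 13462 of 47729 genes; 285 rows without a symbol, with 0.00935% of all counts, were kept. Libraries were scaled by TMM. The robust quasi-likelihood fit had the group alone as a term, the F test was two-sided, and p-values were adjusted by Benjamini and Hochberg over the 13462 genes, with 0.05 as the threshold. The SE is the log2 fold change divided by the root of F. DESeq2 1.42.0, limma-voom (limma 3.58.1), RLE scaling, no filter, a filter at 1 CPM in 4 libraries, the replicate number as a block and leaving out each library were alternatives. The code was tested on simulated data. The members and lists were chosen with earlier results of these data known. Values in every library are given for members that passed or whose groups did not overlap, and for the most counted other member of each role. Library pairs within a group differed by a chi-square of 11.8 to 99.1 per degree of freedom, so none was a copy.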

Additional observations from a re-analysis of the deposited data

Results flagged for a closer look

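Among 90 groups of 4 libraries (44 genes and Fubp1, in both groups), 8 had 1 library whose gap to its nearest neighbour took more of the group's range than Dixon's critical value allows; chance flags about 1 in 20. In the knockdown group that library was replicate 3 each time, on the high side. It had 134 CPM of Orc5 (nearest 114), 959 of Mcm5 (nearest 818), 132 of Prim2 (nearest 104) and 206 of Rpa2 (nearest 173). In the scrambled group replicate 3 was low for Mcm2 (801 CPM, nearest 901), Mcm5 (850, nearest 955) and Rfc3 (62.7, nearest 74.2). Scrambled replicate 4 was high for Fubp1 (396 CPM, nearest 296).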

How the results depend on the processing

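The number of the 44 genes that fell was 0 to 25 over the fits that left out 1 library, 0 with the replicate block and 4 to 7 under the other settings; none rose in any fit. Of the 5 genes that fell, Mcm2 kept its call in 12 of 14 alternatives, Gins4 in 10, Prim2 in 8, and Cdc6 and Mcm7 in 6, and none changed sign. For all genes the leave-one-out fits called 251 to 1469 lower and 275 to 1956 higher, DESeq2 1553 and 2035. With a library left out, 2 to 16 of the 43 other replication genes fell and 0 or 1 rose. In those fits 1.81% to 10.6% of all tested genes fell. With DESeq2 13 of the 43 fell, where 10.0% of genes were lower. Fubp1 passed with DESeq2 (-0.39, adjusted p = 0.0145) and with no low count filter (-0.41, adjusted p = 0.0365). The causes were not tested.

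The titles give both groups replicate numbers 1 to 4, but same-numbered libraries did not deviate together (correlations -0.42, 0.022, -0.558 and -0.22), and no library correlated best with its own number. With the replicate block 205 genes were lower and 195 higher, and 2 of the other replication genes fell and 0 rose.

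Signs turned only for genes that did not pass. Rrm2 had 0.019 with limma-voom, 0.0071 with the filter at 1 CPM and 0.0099 with the block. With no filter Gins1 had -0.0193, Pola1 -0.0022 and Rfc2 -0.014, and with DESeq2 Gins1 had -6e-04. With a library left out, Orc1 ran from -0.1395 to 0.037, Orc4 from -0.0073 to 0.0747, Gins1 from -0.0535 to 0.0611, Pola1 from -0.0307 to 0.0684, Rfc2 from -0.0197 to 0.0298, Rrm2 from -0.1229 to 0.1372 and Tyms from -0.1056 to 0.0157. With 598 or more counts in every library, none of the 44 was limited by the low count filter.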
